A study of Bos taurus with 18 samples.

Results

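*bta-miR-1246* is 1 of the 1071 mature miRNAs in the deposited tables of cattle plasma miRNAs. It was selected on measured values: its CPM-normalized counts (counts of a miRNA scaled to a fixed library total, CPM) in the exosomal fraction were higher at 30 than at 25 months of age. The values of the exosomal libraries at these ages are therefore given as a description, with no test. Tests of *bta-miR-1246* are given only between libraries that this choice did not use.

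The libraries were made from plasma of 3 Japanese Black steers of 1 farm, each bled at about 20, 25 and 30 months of age during fattening. Each plasma sample was separated by a column kit into an exosomal (EX) fraction, from small vesicles that cells release, and a free circulating (FC) fraction, from RNA outside them. This gave 18 small RNA-seq libraries, 9 EX and 9 FC, with 3 steers in each combination of fraction and age. The labels name no treatment. The tables hold miRNAs only and no marker of exosomes, so the names EX and FC rest on the kit. The spread between replicates is the spread between these 3 steers.

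MicroRNAs are short RNAs that guide Argonaute proteins to messenger RNAs, mostly by pairing of their seed, the bases 2 to 8, and so lower the output of their targets. Human miR-1246 is known as an unusual member of this class, because much of it is a fragment of RNU2-1, the U2 small nuclear RNA of the spliceosome, rather than a product of a usual miRNA hairpin. It is also well known as an abundant small RNA of human extracellular vesicles and serum. No U2 sequence was compared here, and whether the bovine reads come from U2 RNA was not tested.

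The sequence of *bta-miR-1246* is shown with that of the only other listed miRNA with the same seed, *bta-miR-12044*. The capitals mark the seed.
bta-miR-1246: aAUGGAUUuuuggagcagg
bta-miR-12044: aAUGGAUUacuucugauugcu
The mature *bta-miR-1246* has 19 bases, of which 8 are G or C (42.1%). The median length of the listed miRNAs was 22 bases, and 41 of 1071 (3.83%) were no longer than *bta-miR-1246*. Among the miRNAs with CPM > 5 in at least 3 libraries of a fraction, the share was 11 of 345 (3.19%) in EX and 11 of 358 (3.07%) in FC. The sequences of *bta-miR-1246* and *bta-miR-12044* share their first 8 bases and differ in length, the latter having 21 bases. *bta-miR-12044* was above 0 in 7 of 18 libraries and reached at most 6.15 CPM, from 26 counts, so the seed was represented in these plasma samples almost wholly by *bta-miR-1246*.

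The sequence also holds GGAG, a tetranucleotide known from studies of miRNA sorting into vesicles. It starts at base 12, and the capitals now mark it.
bta-miR-1246: aauggauuuuuGGAGcagg
GGAG, searched on the miRNA strand after this sequence was seen, is present in 126 of 1071 listed miRNAs (11.8%), in 33 of 345 above the filter in EX (9.57%) and in 32 of 358 in FC (8.94%). A match of these letters is a description and not a sorting site.

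In the RefSeq table for assembly ARS-UCD2.0, MIR1246 overlaps no other gene entry and lies between the protein-coding genes MBNL1, which encodes a splicing regulator of the muscleblind family, and SUCNR1, which encodes the succinate receptor. The nearest entry before it is a pseudogene. The table lists 975 snRNA genes, none of them with U2 in its symbol or synonyms. Only these names were searched, so whether U2 genes are among them was not tested. Its build differs from the genome used for read mapping, so no coordinates are given.

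*bta-miR-1246* was detected in all 18 libraries, with whole counts of 1402 to 36344. Library totals were 991354 to 2778618 miRNA counts in EX and 3615234 to 12088735 in FC, so that 3 counts equal at most 3.03 CPM, far below every value of *bta-miR-1246*. It took 0.0763% to 0.544% of the miRNA counts of a library and ranked between place 40 and place 82. CPM is a share of the miRNA counts of a library, so fewer vesicles, fewer cells releasing RNA and less RNA in each cannot be told apart. EX libraries at 30 months had 991354 to 1988408 counts against 1837454 to 2778618 at the earlier ages, and FC libraries had 3615234 to 4871908 against 6958135 to 12088735.

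In EX, the level was 1183, 971 and 1914 CPM at 20 months in steers 1, 2 and 3. At 25 months it was 939, 763 and 1185 CPM in the same order, and at 30 months 3129, 5341 and 5439 CPM. All 3 libraries at 30 months were above all 6 earlier EX libraries, while the ranges at 20 and 25 months overlapped. In FC, the level was 3006, 4577 and 3430 CPM at 20 months. It was 2342, 2783 and 1563 CPM at 25 months and 2064, 3721 and 3948 CPM at 30 months. The FC libraries at 20 months were all above those at 25 months, and the libraries at 30 months overlapped both.

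**Figure D1:**
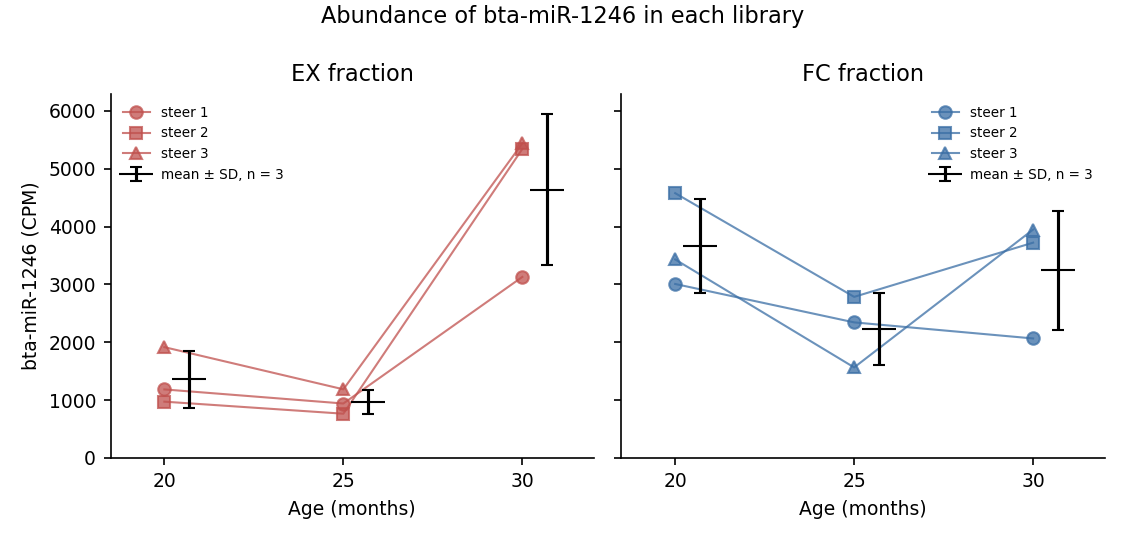
CPM of *bta-miR-1246* (vertical axis, linear) by age in months (horizontal axis) in EX (left) and FC (right), with 1 line for each steer and the mean ± SD of 3 steers in black. In EX the 3 libraries at 30 months lie between 3129 and 5439 CPM and the other 6 between 763 and 1914 CPM, while in FC the 9 libraries lie between 1563 and 4577 CPM.

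From the lowest to the highest mean, the groups were EX at 25 months with 962 ± 212 CPM (SD, n = 3), EX at 20 months with 1356 ± 495 CPM, FC at 25 months with 2230 ± 618 CPM, FC at 30 months with 3244 ± 1028 CPM, FC at 20 months with 3671 ± 812 CPM, and EX at 30 months with 4636 ± 1306 CPM. The ranges of the 3 libraries overlapped in each of the 5 pairs of neighbours in this order, so no neighbouring levels were separated by more than their spread. By mean level, *bta-miR-375* stood just above *bta-miR-1246* in EX at 30 months, at 4638 CPM, and *bta-let-7a-5p*, a member of the let-7 family, just below it at 4592 CPM. In EX at 25 months its neighbours were *bta-miR-375* at 1134 CPM and *bta-let-7d* at 954 CPM, and at 20 months *bta-miR-23b-3p* at 1399 CPM and *bta-miR-142-3p*, a miRNA of blood cells, at 1335 CPM. In FC it stood at place 49, 56 and 46 of the group means at 20, 25 and 30 months, between *bta-miR-27a-3p* and *bta-miR-141*, *bta-miR-2284x* and *bta-miR-423-3p*, and *bta-let-7g* and *bta-miR-125a*.

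Within each steer, the EX level at 30 months was 3.33, 7.00 and 4.59 times that at 25 months in steers 1, 2 and 3. These folds describe the values that chose the miRNA. Against 20 months the EX level at 30 months was 2.64, 5.50 and 2.84 times as high, and it shares its 30 months libraries with the first comparison. The fitted log2 fold changes, without a test, were 1.79 from 25 to 30 months and 1.46 from 20 to 30 months. The first of these is exceeded by 22 of 345 miRNAs in EX, and 49 of 345 (14.2%) were DE-miRNAs in that comparison by edgeR's quasi-likelihood test (FDR < 0.05 and |log2 fold change| > 1), of which 13 were higher (3.77%).

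These folds depend on the scale. The trimmed mean of M-values (TMM) normalization places the median miRNA of EX at a log2 fold change of -0.51 from 25 to 30 months, against -0.04 by library totals, and *bta-miR-1246* at 1.79 against 2.27. Set against *bta-miR-93*, the qPCR control of the study, the EX level at 30 months was 1.86, 4.67 and 2.25 times that at 25 months, and 1.08, 3.82 and 2.44 times that at 20 months. The *bta-miR-93* level itself was 11388 ± 3259 CPM at 25 months and 20044 ± 5769 CPM at 30 months in EX. On this scale steer 1 had almost the same value at 30 as at 20 months, and the other steers kept a higher value at 30 months.

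Other miRNAs moved in the same EX libraries. The summed level of 5 white cell miRNAs (*bta-miR-150*, *bta-miR-142-5p*, *bta-miR-142-3p*, *bta-miR-223* and *bta-miR-342*), all detected in every library, was 235319 to 282438 CPM in EX at 20 months, 174263 to 391864 CPM at 25 months and 50198 to 70604 CPM at 30 months. The lower sum was mainly that of *bta-miR-150*, with a mean of 163828 CPM at 25 months and 13217 CPM at 30 months, while *bta-miR-223* had overlapping ranges at these ages, with means of 24923 and 27294 CPM. The sum of 3 red cell miRNAs (*bta-miR-451*, *bta-miR-486* and *bta-miR-144*) was 25390 to 75485, 28558 to 92244 and 34776 to 54074 CPM. Within this sum *bta-miR-451* was lower at 30 months, at 5882 to 8502 CPM against 12461 to 43037 CPM at 25 months, while *bta-miR-486* was at 28599 to 46216 CPM against 15809 to 48398 CPM. The liver miRNA *bta-miR-122* was at 22939 to 95221, 12218 to 72979 and 35472 to 108600 CPM. Muscle miRNAs (*bta-miR-1*, *bta-miR-133a* and *bta-miR-206*) summed to 37.5 to 295 CPM in EX at 20 months, 42.0 to 80.7 CPM at 25 months and 48.4 to 468 CPM at 30 months. Of these, *bta-miR-1* was at 13.7 to 44.9 CPM at 25 months and 48.4 to 202 CPM at 30 months. At 30 months *bta-miR-133a* was at 0 in 2 and *bta-miR-206* in 1 of the 3 EX libraries. The part of these cell sources and of the lower totals in the level of *bta-miR-1246* was not tested.

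In the EX libraries at 30 months, the count with the most miRNAs within a factor of 1.25 of it was 85, 76 and 41 in steers 1, 2 and 3, with 45, 41 and 43 miRNAs in that window. If this count stood for 1 molecule, *bta-miR-1246* would rest on 73, 70 and 144 molecules. The exact 95% Poisson intervals would then be 2452 to 3934, 4164 to 6748 and 4587 to 6403 CPM, a rough guide, since the factor was chosen with the data in view. These intervals would cover counting error only, not the spread between steers.

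The FC libraries gave the change with age in data that the choice of the miRNA did not use. Those at 25 and 30 months come from the same plasma samples as the EX libraries that chose it. They are therefore not independent of that choice. From 25 to 30 months the FC level in steers 1, 2 and 3 was 0.881, 1.34 and 2.53 times the earlier level, lower in 1 steer and higher in the other two. The log2 fold change was 0.41 (standard error 0.26, FDR = 0.287 by edgeR's quasi-likelihood test), and *bta-miR-1246* was not among the 56 of 358 DE-miRNAs (15.6%). From 20 to 30 months the folds were 0.687, 0.813 and 1.15, the log2 fold change was -0.19 (standard error 0.26, FDR = 0.655), and 25 of 358 miRNAs (6.98%) were called. Neither difference between ages passed the test in FC, and whether the change in EX differed from that in FC was not tested, since EX chose the miRNA. Set against *bta-miR-93*, the FC level at 30 months was 0.553, 0.964 and 1.41 times that at 25 months, so that the direction turned, with a fitted log2 fold change of -0.12 (FDR = 0.776, edgeR). It was 0.489, 0.614 and 0.953 times that at 20 months, lower in all 3 steers, whereas by CPM it was higher in steer 3. The 5 white cell miRNAs summed in FC to 156112 to 314808 CPM at 25 months and 84643 to 113416 CPM at 30 months. Among them *bta-miR-223* went the other way, at 13252 to 47324 CPM and then 48799 to 59516 CPM. The part of these miRNAs in the FC level of *bta-miR-1246* was not tested.

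From 20 to 25 months *bta-miR-1246* was lower in every steer in both fractions. The FC folds were 0.779, 0.608 and 0.456, with a log2 fold change of -0.60 (standard error 0.26, unadjusted p = 0.0475, FDR = 0.999, edgeR), so the difference did not pass the test. By this test 0 of 358 miRNAs (0%) were called, with 13 at an unadjusted p below 0.05, and DESeq2 and edgeR's likelihood ratio test also called 0. The EX folds were 0.794, 0.786 and 0.619, with a fitted log2 fold change of -0.33 and no test. A lower level in all 3 steers was seen for 43 of 358 miRNAs (12.0%) in FC, and in both fractions for 12 of 330 (3.64%). The EX pairs contain the 25 months libraries that chose the miRNA, and are a description only. Against *bta-miR-93* the FC folds were 0.884, 0.637 and 0.678 and the EX folds 0.580, 0.818 and 1.08, so the direction turned in 1 EX pair.

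The 2 fractions of a plasma sample can be set against each other. At 20 months, before the ages that chose the miRNA, the EX level was 0.394, 0.212 and 0.558 times the FC level in steers 1, 2 and 3. The level was thus lower in EX in 3 of 3 plasma samples. Of the 330 miRNAs above the filter in both fractions, 69 were higher in EX in all 3 samples at 20 months. The number lower in all 3 was not counted. The log2 fold change of EX over FC was -1.50 (standard error 0.29, FDR = 0.0323 by edgeR's quasi-likelihood test with steer as a block), a level 2.83-fold lower in EX. *bta-miR-1246* was thus 1 of 11 DE-miRNAs among 336 (3.27%), and 1 of the 4 lower in EX (1.19%), with *bta-miR-455-5p*, *bta-miR-148a* and *bta-let-7i*, whose log2 fold changes were -1.05, -1.03 and -1.02. Of all 336 miRNAs, 19 had a lower log2 fold change than *bta-miR-1246*, and the median was -0.12. Without the pairing of the fractions by steer the log2 fold change was -1.51 and the FDR 0.126, and the call was also lost without steer 1 (log2 fold change -1.50, FDR = 0.123) and without steer 2 (-1.06, FDR = 0.123). With each library scaled on *bta-miR-93* in place of TMM, the log2 fold change was -1.23 and the FDR 0.208, so the call was lost on that scale too. The values of the same kind for miRNAs that hold GGAG were 3 higher (2.08% over all miRNAs) and 1 lower of 31 tested, the lower being *bta-miR-1246*, with a median log2 fold change of -0.02. Of the 12 tested miRNAs of at most 19 bases, 3 were higher and 1, again *bta-miR-1246*, was lower, with a median of 0.52. The summed white cell miRNAs were at 167966 to 204795 CPM in FC at 20 months, the red cell miRNAs at 10720 to 45477 CPM and *bta-miR-122* at 39474 to 121516 CPM, all detected in every library, and their part in the difference was not tested.

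**Figure D2:**
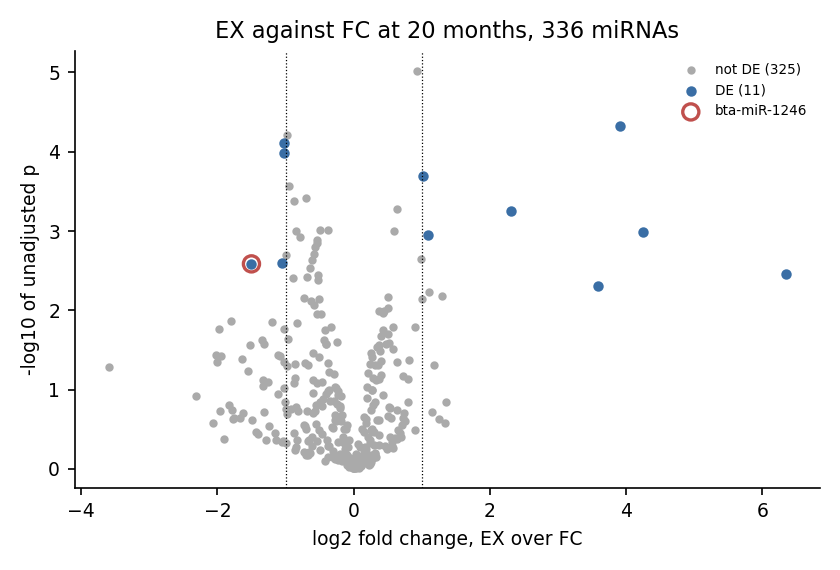
Each point is 1 of 336 miRNAs, with the log2 fold change of EX over FC at 20 months (horizontal axis, dotted lines at -1 and 1) against -log10 of the unadjusted p of edgeR's quasi-likelihood test (vertical axis). DE-miRNAs are blue and *bta-miR-1246* is ringed in red, at -1.50, the lowest log2 fold change of the 11 DE-miRNAs.

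At 25 months the EX level was 0.401, 0.274 and 0.758 times the FC level, and at 30 months 1.52, 1.44 and 1.38 times. The mean ratio was 0.388 ± 0.173 at 20 months, 0.478 ± 0.251 at 25 months and 1.44 ± 0.0693 at 30 months (SD, n = 3). The ratios at 25 and 30 months both contain EX values that chose the miRNA and have no test, and the order of these ages in EX is fixed by that choice. At 30 months the 3 steers lay closer together than at the other ages. After TMM over all 18 libraries, the ratios at 30 months were 1.16, 1.03 and 1.05, so EX and FC were nearly level on that scale, while the ratios at 20 months were 0.364, 0.209 and 0.547 and those at 25 months 0.415, 0.271 and 0.792.

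Among the 330 miRNAs above the filter in both fractions, the ratio of the group means was lower than that of *bta-miR-1246* for 9 miRNAs at 20 months, for 12 at 25 months and for 235 (71.2%) at 30 months. The counts at 25 and 30 months are again a description of the values that chose it. The median ratio over these miRNAs was 0.960, 0.866 and 1.03 at the 3 ages. A ratio by CPM below 1 in all 6 plasma samples at 20 and 25 months and above 1 in all 3 at 30 months was found for 7 of 330 miRNAs (2.12%), a pattern that uses the same EX values and was chosen after they were seen. They were *bta-miR-1246*, *bta-let-7f*, the liver miRNA *bta-miR-122*, *bta-miR-199a-3p*, the hypoxia-induced *bta-miR-210*, *bta-miR-22-3p* and *bta-miR-6529a*.

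**Figure D3:**
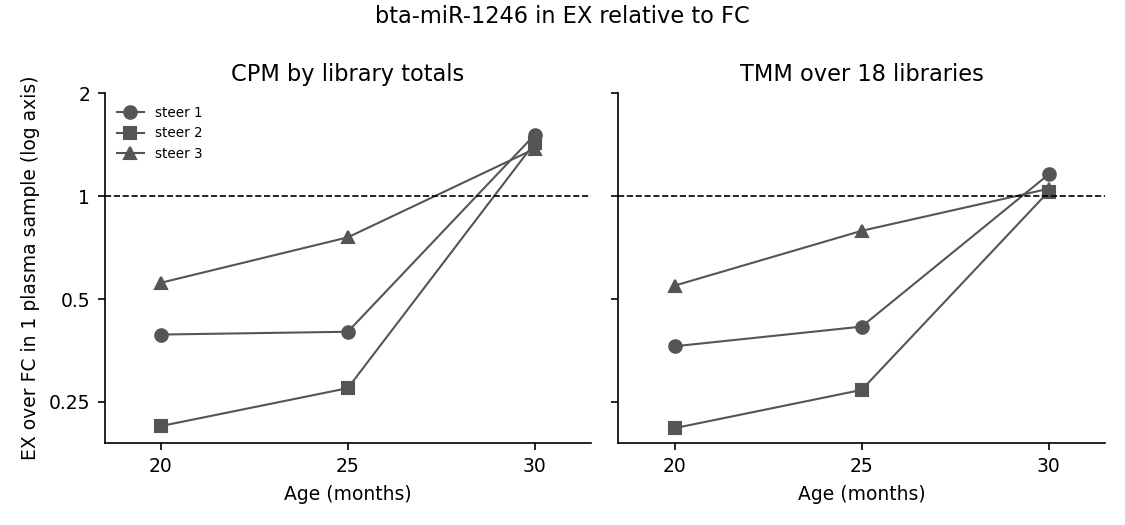
Level of *bta-miR-1246* in EX divided by that in FC of the same plasma sample (vertical axis, log scale, dashed line at 1) by age in months, for each of 3 steers, by CPM (left) and after TMM over 18 libraries (right). The 6 ratios at 20 and 25 months lie below 1 on both scales, and the 3 at 30 months lie between 1.38 and 1.52 by CPM and between 1.03 and 1.16 after TMM.

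Several other listed miRNAs are, by background knowledge, read from fragments of other small RNAs, snoRNAs or tRNAs. Of 6 such miRNAs, *bta-miR-1248*, *bta-miR-1291*, *bta-miR-664a* and *bta-miR-1260b* were under the filter in both fractions, with highest values of 0.633, 18.5, 6.09 and 8.71 CPM. The sequences of the other two are shown because they were the ones measured beside *bta-miR-1246*, with the seed in capitals.
bta-miR-1839: aAGGUAGAuagaacaggucuuguu
bta-miR-664b: uAUUCAUUuaucucccagccuac
*bta-miR-1839* was at 286 to 360 CPM in EX at 20 months, 216 to 390 CPM at 25 months and 355 to 735 CPM at 30 months, with overlapping ranges. In FC it lay between 349 and 646 CPM over the 9 libraries. Its log2 fold change of EX over FC at 20 months was -0.62 (standard error 0.15, FDR = 0.0626, edgeR), the same direction as *bta-miR-1246* without passing the test. *bta-miR-664b* was at 29.1 to 54.1 CPM in EX at 20 months and was at 0 in 2 of 3 EX libraries at 30 months, and from 25 to 30 months in FC its log2 fold change was -1.01 (standard error 0.52, FDR = 0.191). Neither miRNA was called in any of the 4 comparisons tested here, for which the share of all miRNAs called was 15.6%, 6.98%, 0% and 3.27% in the order given above.

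The miRNAs most like *bta-miR-1246* were found from the root mean square difference between profiles of log2(CPM + 1), each centred on its mean over the 9 libraries of a fraction. In EX the nearest of 344 miRNAs were *bta-miR-210* (0.369 log2 units), *bta-miR-375* (0.458), a miRNA of pancreatic islets and epithelia, *bta-miR-6529a* (0.494), *bta-miR-760-3p* (0.577) and *bta-miR-200c* (0.593), a miRNA of epithelial cells, against a median difference of 1.76. All 5 had their highest mean at 30 months and their lowest at 25 months, which follows from the way they were found. The mean of *bta-miR-210* in EX was 58.7 CPM at 25 months against 305 CPM at 30 months, and that of *bta-miR-760-3p* was 112 against 672 CPM. None of the 5 shares the seed of *bta-miR-1246*.

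In FC the nearest of 357 miRNAs were *bta-miR-379* (0.326 log2 units), *bta-miR-193a-5p* (0.354), *bta-miR-30a-5p* (0.371), *bta-miR-148a* (0.374) and *bta-miR-10172-3p* (0.377), against a median of 0.739. No miRNA was among the nearest 5 in both fractions. The 5 nearest in EX stood at places 54, 101, 229, 230 and 76 in FC, and *bta-miR-193a-5p* stood at place 8 in EX. From 25 to 30 months in FC, *bta-miR-6529a* rose with a log2 fold change of 1.55 (FDR = 0.0261, edgeR; 5.59% of all miRNAs were called higher) and *bta-miR-760-3p* with 1.47 (FDR = 0.0261). The log2 fold changes of *bta-miR-375* (0.78, FDR = 0.0489) and *bta-miR-148a* (0.96, FDR = 0.0261) stayed below the threshold of 1, and those of *bta-miR-210* (0.48, FDR = 0.380) and *bta-miR-200c* (0.73, FDR = 0.0950) did not pass the test. Thus 2 of the 5 miRNAs nearest to *bta-miR-1246* in EX were DE-miRNAs in FC, where *bta-miR-1246* itself was not. The difference between them and *bta-miR-1246* was not tested. The 5 were picked on EX profiles from the same plasma samples, so the share over all miRNAs is no baseline for them.

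**Figure D4:**
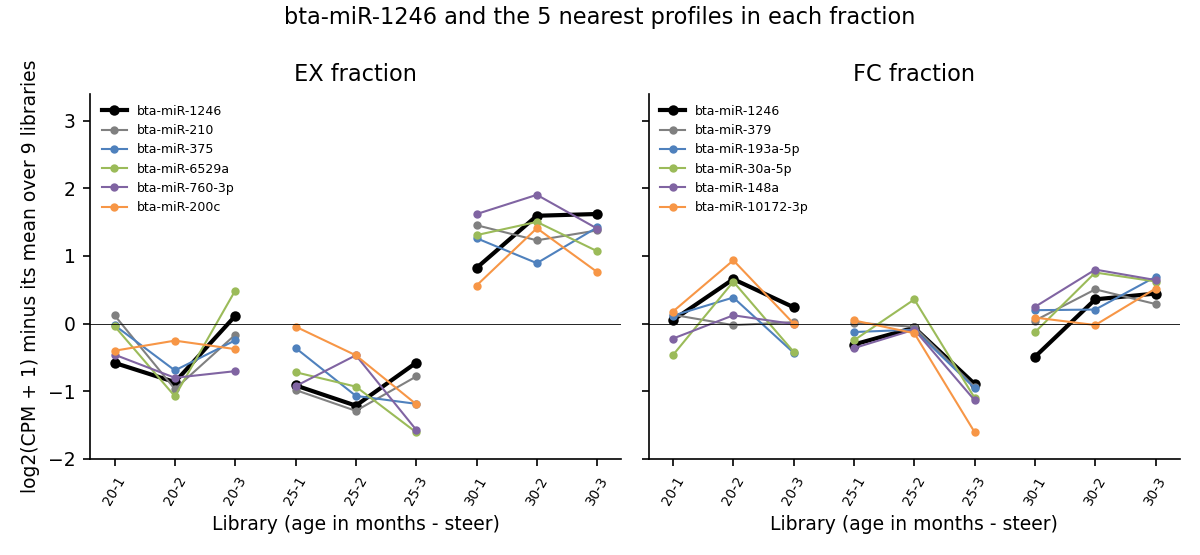
Profiles of *bta-miR-1246* (black) and its 5 nearest miRNAs in EX (left) and in FC (right), as log2(CPM + 1) minus its mean over the 9 libraries of the fraction (vertical axis), with libraries ordered by age and steer (horizontal axis). In EX the black line lies above 0 in the 3 libraries at 30 months and in steer 3 at 20 months, and in FC it lies below 0 in the 3 libraries at 25 months and in steer 1 at 30 months.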

How the data were processed

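Small RNA-seq was performed by the authors on 18 libraries from the plasma of 3 steers. They trimmed the reads (cutadapt 5.0 and Trimmomatic 0.39 per the submitters' processing notes, which also name FastQC 0.12.1), mapped them with miRDeep2 to a Japanese Black cattle genome and assigned them to the mature miRNAs of miRBase. They deposited a table of counts, which are expected counts where a read is shared by several miRNAs, and a table of CPM values, handled as scores because a row of totals is part of it. Sequences come from the deposited count table. In 4 FC libraries the counts of 77 to 101 miRNAs stood 1 row away from the CPM values and were recomputed from them, and *bta-miR-1246* was not among these. All columns were used. Over 18 pairs of libraries of the same group, chi-square per degree of freedom was 196 or more, so none is a copy of another of its group. Libraries of different groups were not compared in this way.

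The deposited expected counts were rounded to whole numbers. miRNAs with CPM > 5 in 3 or more libraries were kept, normalized by TMM and fitted with edgeR 4.0.16 (quasi-likelihood test, R 4.3.3, limma 3.58.1) over the 9 FC libraries or the 6 libraries at 20 months, with steer as a block. Benjamini-Hochberg adjustment (FDR) was taken over all miRNAs of a comparison. The same 3 steers were sampled at each age, per the study's list of animals, and the EX and FC libraries of a number come from 1 plasma sample. The mean correlation of deviations from the group means between libraries of the same steer was 0.0251 in EX, 0.113 in FC and 0.404 between EX and FC at 20 months, against -0.0126, -0.0568 and -0.203 between different steers. DESeq2 1.42.0 was an alternative. Tables and figures were made in Python 3.11.15 (pandas 2.3.3, numpy 2.4.6, matplotlib 3.10.9, scipy 1.17.1).

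The miRNA, the lists and the rule for named miRNAs were chosen with earlier results of these data known. Named are *bta-miR-1246*, miRNAs with its seed, 6 miRNAs known as fragments of other small RNAs, *bta-miR-93*, the 5 nearest profiles in each fraction, the neighbours by mean level and the cell lists. The other miRNAs with a lower level in EX at 20 months, and those with the same turn of the EX to FC ratio, were named after their values were seen. Intervals and the floor of 3 counts cover counting error only, since reads copied by PCR are not independent molecules.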

Additional observations from a re-analysis of the deposited data

How the results depend on the processing

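The difference between EX and FC at 20 months kept its direction in all 11 alternatives and its call in 7. Of these 7, the rows as deposited gave the same values because no count at 20 months was recomputed, and the fit over all 18 libraries contains the EX libraries that chose the miRNA, so neither adds support. The difference lost the call without the replicate block (log2 fold change -1.51, FDR = 0.126, edgeR). Leaving out each steer gave -1.74 to -1.06, with FDR from 1.71e-13 to 0.123. The lowest FDR, without steer 3, rests on steers 1 and 2 only and lies far below the 0.0323 with all 3. That alternative also adds no support. Scaled on *bta-miR-93*, an alternative chosen after seeing the data, the log2 fold change was -1.23 (FDR = 0.208). The cause was not tested. EX over FC at 30 months, 0.53 on the log2 scale by CPM, was 0.11 after TMM over 18 libraries, an alternative chosen after seeing the data. In FC no alternative brought a call. From 25 to 30 months the log2 fold change was -0.12 when scaled on *bta-miR-93*, turning its direction, and 0.20 to 0.72 in the other alternatives. It was -0.57 to -0.04 from 20 to 30 months and -0.80 to -0.45 from 20 to 25 months, with or without the replicate block. In EX, with no test, it was 1.43 to 2.27, 1.11 to 1.80 and -0.47 to -0.23.

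Counts of DE-miRNAs moved more. From 25 to 30 months in FC they fell from 56 to 10 with rows as deposited and were 10 to 51 with a steer left out, against 79 by DESeq2, 80 by the likelihood ratio test, 87 scaled on *bta-miR-93* and 70 with no low-count filter. From 20 to 30 months in FC they were 25, against 52 by DESeq2, 52 with no low-count filter, 53 by the likelihood ratio test, 59 scaled on *bta-miR-93*, 2 with rows as deposited and 5 to 21 with a steer left out. Between EX and FC at 20 months they were 11, against 1 without the replicate block, 19 by DESeq2, 4 over all 18 libraries, 4 scaled on *bta-miR-93* and 2 to 12 with a steer left out. All p-values rest on 3 steers, and 2 of the 3 EX libraries at 30 months were the shallowest of all. Besides EX from 25 to 30 months, TMM in place of library totals moved the median log2 fold change of all miRNAs from -0.30 to -0.64 in EX from 20 to 30 months, from -0.19 to -0.08 in EX from 20 to 25 months, from -0.08 to -0.20 in FC from 25 to 30 months and from -0.04 to 0.09 in FC from 20 to 25 months, and the direction of *bta-miR-1246* was the same on both scales. Scaling on *bta-miR-93* placed this median at -0.74 in FC from 25 to 30 months, -0.52 from 20 to 30 months and 0.22 from 20 to 25 months, and at 0.14 for EX over FC at 20 months.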
